A study of Bos taurus with 90 samples.

Results

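Cumulus cells (CCs) of small bovine antral follicles were compared with CCs of medium follicles. Members were chosen by column label and stage, 8 small against 8 medium follicles, which gave 16 of the 90 libraries of the series and 16 of its 20 CC libraries of these stages. The other 4 CC libraries were left out: the study had removed 3 of these follicles, and the fourth column, CS70701, held counts for part of the gene list only. All follicles came from ovaries of Bos taurus cows, with no agent named in the labels, and were sorted by diameter, from 3.1 to 3.8 mm in the small and from 6.2 to 7.0 mm in the medium group. Each library was made from the pooled CCs of 1 follicle by SMART-seq2, a protocol that amplifies full-length poly(A) cDNA from very little input. By the study's methods each size class drew on several animals, collected in a few separate batches of few ovaries. The labels do not say which follicles shared an animal or a batch, so the p-values measure the spread between follicles.

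CCs are the granulosa cells that enclose the oocyte within the antral follicle. They pass metabolites to the oocyte through gap junctions at the tips of transzonal projections, and they respond to growth factors that the oocyte secretes, among them GDF9 and BMP15. Mural granulosa cells (MGCs), which line the follicle wall, are the main site of oestrogen synthesis and lie outside this local gradient.

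The comparison asks which genes of CCs differ as a follicle grows from the small to the medium class. Among all 8 against 8 follicles no gene did so past the multiple testing limit in edgeR, while DESeq2 called 11. The study had selected 3 small and 3 medium of these follicles as healthy from marker genes of their MGCs, a criterion that used no CC value, and in these 6 libraries 5 genes passed. The remaining follicles are called the other follicles, 5 small and 5 medium. Genes are given by their Ensembl identifiers because no table used here pairs these with gene symbols, and no sequence is shown for the same reason.

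The depth of the libraries differed. Total counts ran from 8760201 to 34620362 in the 8 small libraries and from 11777136 to 37122994 in the 8 medium libraries. A principal component analysis of log2(CPM + 1), where CPM is a gene's count scaled to a common library total, set 4 libraries apart. The first component held 51.6% of the variance, and on it CS50501 (score 206.2) and CS71701 (138.0), both from other small follicles, lay beyond all remaining libraries. The second component held 13.3%, and on it CM72403 (115.5) and CM72404 (53.8), both from healthy medium follicles, lay apart. Pairwise correlations across genes ran from 0.692 to 0.962 within the small stage, from 0.759 to 0.941 within the medium stage and from 0.662 to 0.947 between the stages, with medians of 0.902, 0.895 and 0.892. CS50501 and CS71701 correlated with each other at 0.9 and with the other small libraries at a median of 0.761.

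**Figure D1:**
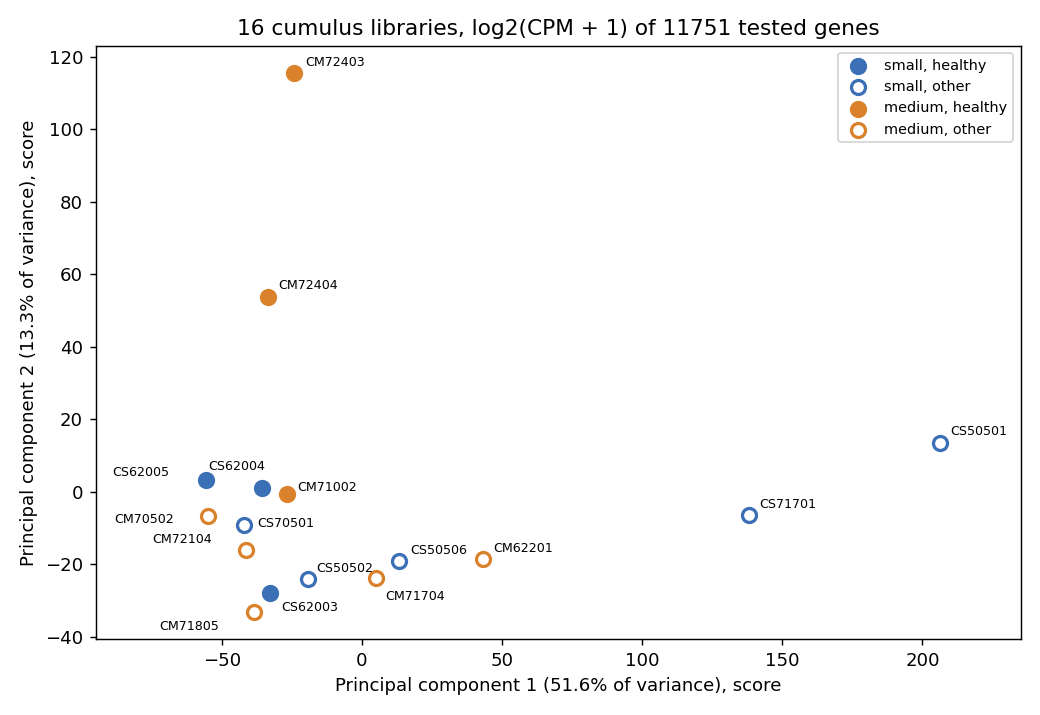
Scores of the 16 cumulus libraries on the first and second principal components (horizontal and vertical axis) of log2(CPM + 1) over the 11751 tested genes. Each point is 1 library, coloured by stage, with filled points for the healthy follicles; CS50501 and CS71701 lie at the far right, CM72403 and CM72404 at the top, and the small and medium points of the remaining 12 libraries are mixed.

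The labelled cell type was checked against genes defined in the 10 large follicles of the series, since no symbol could be used. Genes with a median of at least 20 CPM in CCs, MGCs or oocytes of large follicles and at least 8-fold above both other cell types formed a cumulus-enriched list of 129 genes, a mural-enriched list of 313 and an oocyte-enriched list of 1251. These lists were chosen after the data were seen. By the study's methods MGC libraries were made by standard bulk RNA sequencing, and CC and oocyte libraries by SMART-seq2. Cell type and protocol therefore cannot be told apart where MGC values stand beside CC or oocyte values. Cumulus-enriched genes took from 5.43% to 14.7% of the counts in the 16 libraries, against 0.308% to 0.8% in large MGCs. Mural-enriched genes took from 0.38% to 1.53%, against 5.08% to 13.1% in large MGCs. A further 222 genes had a median of at least 50 CPM in oocytes of large follicles and lay below 1 CPM in every MGC library of large follicles. These genes took from 0.00785% to 0.0254%, against at least 8.88% in large oocytes. By these genes all 16 libraries thus differed from large MGCs, which also differ in protocol, and held few oocyte transcripts. No difference of these shares between the stages passed an exact two-sided permutation test of the 8 against 8 libraries (the lowest was p = 0.306, adjusted p = 0.635 over 9 library measures).

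The number of genes with at least 1 count ran from 11872 to 16583 in small (median 15187.5) and from 14922 to 18468 in medium follicles (median 16370.5). The groups overlapped, and the exact two-sided permutation test gave p = 0.026 and an adjusted p of 0.234 over 9 library measures, which did not pass. When each library was thinned to 8760201 counts, the total of the smallest library, the medians were 14625.5 in small and 15483.5 in medium follicles (exact permutation test, p = 0.0284, unadjusted), with means that differed by 1370 genes. The lowest of the 16 values was that of CS50501, with 10944 genes, and without it the means of the thinned libraries differed by 904 genes (exact permutation test, p = 0.0569, n = 7 against 8).

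The 8 against 8 comparison was made with edgeR's quasi-likelihood test on the 11751 genes that exceeded 1 CPM in 8 or more of the 16 libraries. A differentially expressed gene (DEG) was one with a fold change above 2 and a Benjamini-Hochberg adjusted p under 0.05. By edgeR 0 of 11751 genes (0.0%) were DEGs, and the lowest adjusted p was 0.563. At an unadjusted p under 0.05 there were 1014 genes (8.63%), and with a fold change above 2 there were 413 that were higher in medium follicles (3.51%) and 298 that were lower (2.54%). DESeq2, the tool of the study, called 11 DEGs, of which 11 rose, and all 11 had an unadjusted edgeR p under 0.05. The median absolute log2 fold change was 0.336, and the biological coefficient of variation between follicles of a stage was 0.677. Simulated counts of this spread, in which 200 genes were changed 4-fold, gave 118 of the 200 back in the 8 against 8 design. The changed genes were drawn only from those above a set mean level, and the simulation held no libraries set apart from the rest. The count recovered is therefore not the sensitivity for all tested genes.

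The 298 genes with lower values in medium follicles depended on the small libraries that stood apart. Without CS50501 there were 73 such genes, without CS71701 there were 113, and without both there were 47, while the genes with higher values numbered 398, 331 and 398. The count of higher genes depended on the medium libraries that stood apart and was 230 without CM72403 and 191 without CM72403 and CM72404, where the lower genes numbered 224 and 167. The lower genes also numbered 198 without CM70502 and 210 without CM72104. Without CS50501 and CS71701 edgeR still called 0 DEGs, with 882 genes at an unadjusted p under 0.05 and a lowest adjusted p of 0.0589. Of the 301 genes at a mean log2 CPM of 9 or more, 2 were higher and 42 lower in medium follicles. These calls were at an unadjusted p under 0.05 and a fold change above 2. Without CS50501 and CS71701, 6 of the 301 genes were higher and 0 lower.

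Over the 16 libraries the stage explained little of the distance between them. The share of the summed squared distance that lay between stages was 8.47% over the 16 libraries, against a median of 5.42% over all 12870 arrangements of the labels (exact permutation test, p = 0.268). The share was 8.68% without CS50501 and CS71701, against a permuted median of 7.36% (exact permutation test, p = 0.309). In the 6 healthy libraries it was 35.2%, against 15.7% (exact permutation test, p = 0.1, the smallest that 20 arrangements allow). In the 10 other libraries it was 17.5%, against 8.12% (exact permutation test, p = 0.198). The permuted median rose as libraries became fewer, so the shares of these sets are not compared with each other. Few genes had libraries that did not overlap between the stages. With 8 against 8 libraries complete separation is hard to reach, so a low count is no measure of the stage. After scaling by the trimmed mean of M-values (TMM) 1 gene (0.00851%) had every medium library above every small one and 0 had every medium library below. On unscaled CPM there were 3 such genes (0.0255%). The former gene was scarce, at no more than 1.04 unscaled CPM in small and from 1.22 to 10.7 in medium follicles, and it was higher in medium follicles by 3.03 log2 units (adjusted p = 0.563, edgeR).

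Within each direction the gene with the lowest p among those that averaged a log2 CPM of 3 or more and changed more than 2-fold is described for all 8 against 8 follicles. ENSBTAG00000002069 was the highest-ranked gene with a higher level in medium follicles. In the healthy small follicles it had 16.4 (CS62005), 9.36 (CS62004) and 11.7 CPM (CS62003), and in the other small follicles 1.11 (CS50501), 11 (CS70501), 14.4 (CS50506), 26.8 (CS50502) and 1.73 CPM (CS71701). In the healthy medium follicles it had 35.3 (CM72403), 9.37 (CM71002) and 150.0 CPM (CM72404), and in the other medium follicles 54.8 (CM62201), 46.4 (CM72104), 438 (CM70502), 59.1 (CM71704) and 49.2 CPM (CM71805). All medium libraries but CM71002 lay above all small libraries, and CM70502 lay far above the rest.

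The log2 fold change of ENSBTAG00000002069 was 3.11 ± 0.64 (SE, n = 8 against 8), with an adjusted p of 0.563 by edgeR, which did not pass. The 16 libraries that chose the gene are those of the healthy and the other set together, so its values in each, a log2 fold change of 2.46 ± 0.775 in the 3 against 3 healthy and of 3.39 ± 0.832 in the 5 against 5 other follicles, are a description and no further support (adjusted p = 0.241 and 0.609, edgeR). Within the identifier prefixes that held both stages, CM70502 was above CS70501 by 5.2 and CM71704 above CS71701 by 4.46 on the log2(CPM + 1) scale, with 1 library on each side and no test. DESeq2 called this gene (log2 fold change 3.12, adjusted p = 0.000554). CCs of the 10 large follicles had a median of 38.1 CPM, MGCs of the same small and medium follicles had medians of 57.8 and 76.1 CPM, and oocytes had at most 1.37 CPM.

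ENSBTAG00000020429 was the highest-ranked gene with a lower level in medium follicles. The healthy small follicles had 126 (CS62005), 114 (CS62004) and 150.0 CPM (CS62003), and the other small follicles had 71.9 (CS50501), 48.2 (CS70501), 47.3 (CS50506), 60.4 (CS50502) and 76.9 CPM (CS71701). The healthy medium follicles had 25.1 (CM72403), 57.4 (CM71002) and 33.8 CPM (CM72404), and the other medium follicles had 32.7 (CM62201), 40.1 (CM72104), 38.8 (CM70502), 47.2 (CM71704) and 60.4 CPM (CM71805). The groups overlapped between 47.3 and 60.4 CPM, and the 3 healthy small libraries were the highest of all.

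The log2 fold change of ENSBTAG00000020429 was -1.25 ± 0.3 (SE, n = 8 against 8; adjusted p = 0.563, edgeR), and its parts, which the choice of the gene also used, were -1.62 ± 0.371 in the healthy and -1.03 ± 0.415 in the other follicles (adjusted p = 0.175 and 0.609, edgeR). The difference between these changes, -0.6 ± 0.613, had an adjusted p of 0.734 in edgeR's interaction test. Within identifier prefixes the differences on the log2(CPM + 1) scale were -0.31 (CM70502 against CS70501) and -0.69 (CM71704 against CS71701). In MGCs of the same follicles its medians were 24.4 CPM in small and 29.4 CPM in medium follicles, and in CCs of large follicles the median was 67.5 CPM.

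**Figure D2:**
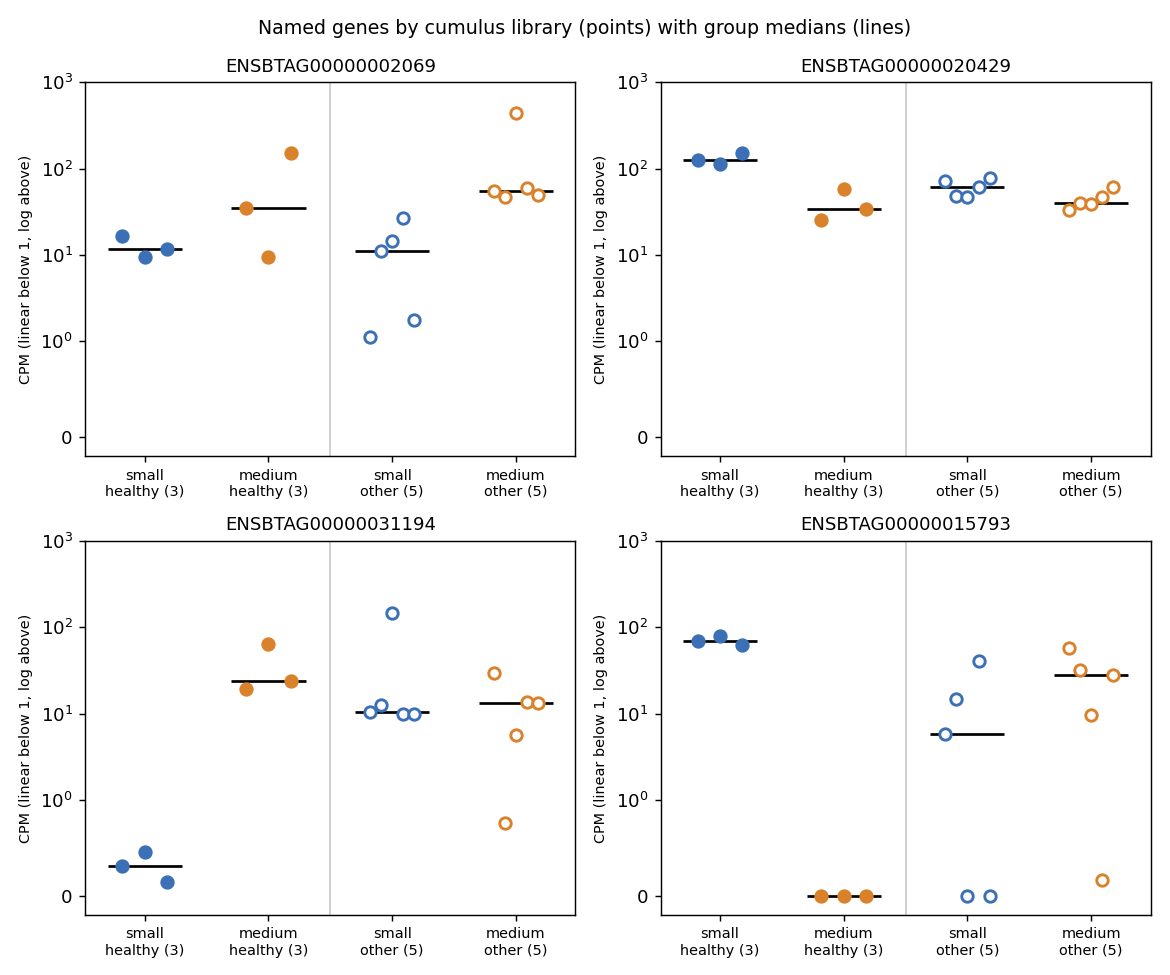
CPM of the 4 named genes (vertical axes, linear below 1 and logarithmic above) in each of the 16 cumulus libraries, grouped by stage and by healthy (filled) or other (open) follicles; each point is 1 library and each line a group median. ENSBTAG00000002069 and ENSBTAG00000020429 were chosen over all 16 libraries, and ENSBTAG00000031194 and ENSBTAG00000015793 in the healthy libraries, where they separate the stages, and both overlap between the stages in the other follicles.

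In the 3 against 3 healthy follicles edgeR called 5 DEGs of 11751 genes (0.0425%), of which 4 rose and 1 fell from small to medium. The biological coefficient of variation fitted to the 6 libraries was 0.457. Pairwise correlations ran from 0.96 to 0.962 among the 3 healthy small libraries and from 0.821 to 0.92 among the 3 healthy medium libraries. The median of the latter, 0.897, was no higher than that of the other medium libraries, 0.904. At an unadjusted p under 0.05 there were 1827 genes (15.5%), and with a fold change above 2 there were 1014 higher (8.63%) and 384 lower genes (3.27%). Simulated counts with 200 genes changed 4-fold gave 125 of them back in this design, under the same limits. DESeq2 called 433 DEGs, 345 higher and 88 lower, and the 5 DEGs of edgeR were all among them. The count of edgeR DEGs depended on single libraries. It was 1156 without CM71002, 25 without CM72403, 2 without CM72404 and 1 without any of CS62003, CS62004 or CS62005. The 3 healthy small follicles share the identifier prefix 620, which occurs in none of the medium follicles, and the healthy medium follicles have the prefixes 710 and 724. The labels do not say what the prefix stands for, and whatever it marks cannot be told apart from the stage in these 6 libraries.

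ENSBTAG00000015793 was the DEG that fell. Its level in the healthy small follicles was 69.6 (CS62005), 79.1 (CS62004) and 62.2 CPM (CS62003), with a mean of 70.3 ± 8.48 CPM (SD, n = 3). CM72403, CM71002 and CM72404 had 0 counts each. Against a floor of 3 counts in each of these libraries, a mean of 0.15 CPM, its level was at least 469-fold lower in the healthy medium follicles (adjusted p = 0.000474, edgeR, n = 3 against 3). In the other follicles no such split was seen. The other small libraries had 5.84 (CS50501), 14.9 (CS70501), 0 (CS50506), 40.9 (CS50502) and 0 CPM (CS71701), and the other medium libraries had 57.2 (CM62201), 32.0 (CM72104), 9.61 (CM70502), 0.167 (CM71704) and 27.7 CPM (CM71805). The gene was thus at or near 0 in 6 of 16 libraries of either stage. The log2 fold change was 0.99 ± 1.45 in the other follicles and -0.97 ± 1.34 over all 16 libraries (adjusted p = 0.851 and 0.885, edgeR).

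The MGCs of the same follicles, sequenced as separate libraries, held ENSBTAG00000015793 at 17.0 to 19.3 CPM in the 3 healthy small and at 0.96 to 2.59 CPM in the 3 healthy medium follicles. In the MGCs of the other follicles it ran from 1.42 to 24.8 CPM in small and from 2.59 to 24.5 CPM in medium follicles. Oocytes of these follicles had at most 0.621 CPM. CCs of the 10 large follicles ranged from 0 to 63.0 CPM with a median of 19.4 CPM, so the wide spread between follicles was not limited to the small and medium stages.

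ENSBTAG00000031194 was the DEG with the lowest p among those that rose. The healthy small follicles had 0.307 (CS62005), 0.457 (CS62004) and 0.141 CPM (CS62003), from 4 to 8 counts each. The healthy medium follicles had 19.5 (CM72403), 65.1 (CM71002) and 23.7 CPM (CM72404). The groups did not overlap, and the log2 fold change was 7.16 ± 0.728 (SE, n = 3 against 3; adjusted p = 0.00887, edgeR). Of the other small follicles, 4 lay between 10.0 and 12.7 CPM and CS50506 had 147 CPM, and the other medium follicles ran from 0.763 to 29.9 CPM with a median of 13.3 CPM. The very low level was therefore seen in the 3 healthy small libraries and in CM72104, not in small follicles at large. The log2 fold change was -1.71 ± 0.977 in the other follicles and -0.37 ± 1.02 in all 16 libraries (adjusted p = 0.619 and 0.96, edgeR). The difference of the change between healthy and other follicles was 8.87 ± 1.7 log2 units, with an adjusted p of 0.488 in edgeR's interaction test.

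This gene was most abundant in oocytes, with medians of 65.7 CPM in small and 67.6 CPM in medium follicles, and scarce in MGCs, with medians of 0.238 and 0.855 CPM. The 3 healthy small oocytes had 64.2 to 69.3 CPM and the 3 healthy medium oocytes 65.8 to 107 CPM. The 222 genes restricted to oocytes took 0.00785% to 0.0104% of the counts of the healthy small and 0.0154% to 0.0254% of the healthy medium CC libraries, which did not overlap (exact permutation test, p = 0.1, the smallest that 3 against 3 allows). Among the other follicles, CS50506 had the highest CC level of this gene at a share of 0.00835%. That level was 147 CPM, beside 64.4 CPM in the oocyte of the same follicle. CS50501 had a share of 0.0244% and was among the small libraries at 10.0 to 12.7 CPM. The remaining other libraries had 0.763 to 29.9 CPM at shares from 0.00825% to 0.0154%. The part of oocyte transcripts in the values of this gene was not tested.

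The 3 remaining DEGs also rose in the healthy set, by 2.97, 3.57 and 4.62 log2 units (adjusted p = 0.0471, 0.0471 and 0.0476, edgeR). Their means went from 13.6 ± 3.15 to 99.4 ± 30.7 CPM, from 7.8 ± 3.31 to 84.8 ± 33.9 CPM and from 116 ± 27.5 to 2580 ± 1900 CPM (SD, n = 3 each). In the other follicles their log2 fold changes were 0.4, 0.79 and 1.12, none of which passed, and their libraries overlapped between stages.

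Healthy and other follicles, which share no library, were then compared across all genes. The log2 fold changes of the 2 sets had a Pearson r of -0.062 and a Spearman rho of -0.089 across 11751 genes, which are not independent replicates and which share the libraries of each set. Without CS50501 and CS71701 these were 0.079 and 0.057. Of the 1014 genes higher in medium healthy follicles at an unadjusted p under 0.05 and a fold change above 2, 57 were also among the 268 such genes of the other follicles. This was 5.62% of the former and 21.3% of the latter, beside 2.28% and 8.63% of all tested genes. Of the same 1014 genes 54 were among the lower genes of the other follicles, and 52.8% had the same sign there, beside 52.2% of all genes. Without CS50501 and CS71701 the shared genes numbered 49 and the opposite ones 14, and 60.7% had the same sign, beside 51.5%. Of the 384 lower genes, 4 were among the 528 lower genes of the other follicles, which was 1.04% and 0.758%, beside 4.49% and 3.27% of all genes, and 6 were among the higher genes. The same sign was held by 27.1% of them, beside 47.8% of all genes, and by 48.2%, beside 48.5%, without CS50501 and CS71701. In edgeR's interaction test for a different change in the healthy and the other follicles 0 genes passed (lowest adjusted p = 0.488). At an unadjusted p under 0.05 there were 1111 genes (9.45%), and DESeq2 was not run for this term. In the 5 against 5 other follicles alone edgeR called 0 DEGs (0.0%, lowest adjusted p = 0.609), with 933 genes (7.94%) at an unadjusted p under 0.05, and DESeq2 called 2.

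**Figure D3:**
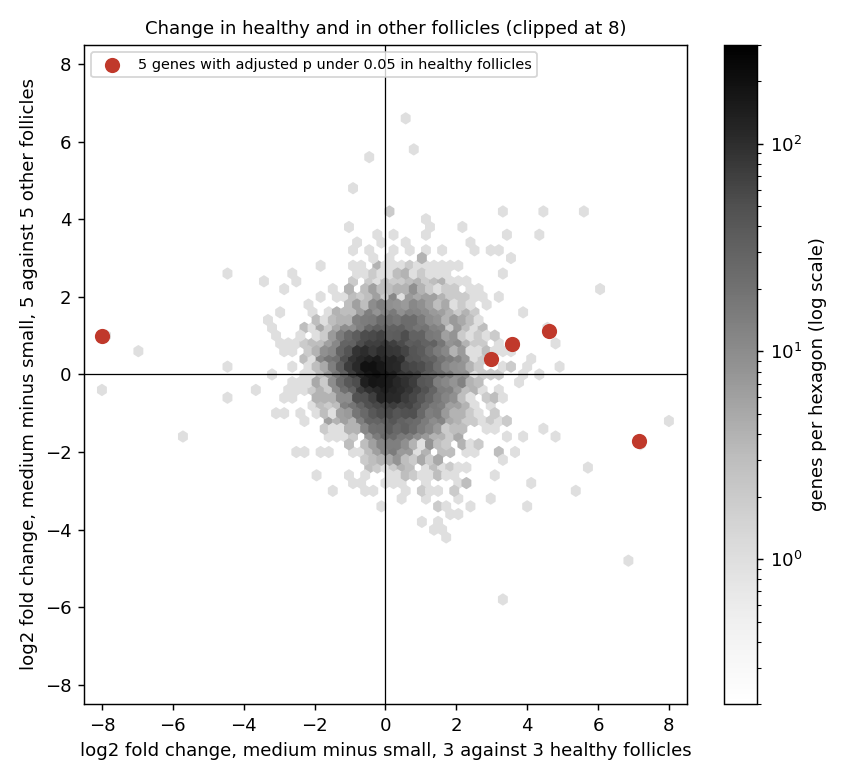
Log2 fold change from small to medium of each tested gene in the 3 against 3 healthy follicles (horizontal axis) and in the 5 against 5 other follicles (vertical axis), both clipped at 8; shading gives genes per hexagon on a log scale and red points the 5 DEGs of the healthy follicles. The cloud has no slope (Pearson r -0.062), and the red points at far left and far right change direction between the sets.

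Separation without overlap is easier to reach with fewer libraries, so the counts of the healthy and the other set are not compared. After TMM scaling 2571 genes (21.9%) did not overlap between the healthy stages, 1175 with medium above and 1396 with medium below, and 134 genes (1.14%) did not in the other follicles. On unscaled CPM the healthy split was 829 above and 1978 below, so the balance of directions depended on the scaling.

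Among mural-enriched genes, a list in which cell type and protocol cannot be told apart, more were higher than lower in CCs of medium follicles. Of the 313 mural-enriched genes, 200 passed the filter on low values. At an unadjusted p under 0.05 and a fold change above 2, 24 of these were higher (12.0%, beside 3.51% of all genes) and 4 lower (2.0%, beside 2.54%), and 0 passed the adjusted threshold by edgeR. The list takes genes that are low in CCs, and all genes are not matched to it for level. Among all 3180 tested genes at a mean log2 CPM under 3, 173 were higher and 56 lower at these limits. In the healthy follicles 335 and 90 of them were. The median log2 fold change of the 200 mural-enriched genes was 0.54 in all 16 libraries, beside 0.02 over all genes. It was 0.88 in the healthy and 0.28 in the other follicles, beside 0.05 and 0.04. Library by library, the median deviation of these 200 genes from their means ran from -0.77 (CS50501) to 0.01 (CS50502) in the small follicles and from -0.31 (CM71805) to 1.11 (CM72403) in the medium follicles. The medium libraries CM72403, CM71704, CM70502 and CM72404 lay above all small libraries, and the remaining 4 lay within their range. Without CM72403 the median log2 fold change was 0.28, with 12 of the 200 genes higher beside 230 of all 11751 genes. Without CM72403 and CM72404 it was 0.18, with 9 of the 200 genes higher beside 191 of all 11751 genes. With the first digit of the identifier as a covariate 2 of the 200 genes were higher and 0 lower, beside 106 and 70 of all 11751 genes, and the median was 0.39. Fewer cells of a type and less RNA per cell cannot be told apart in such pools, and the part of MGCs carried into the pools was not tested.

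The summed share of mural-enriched genes ran from 0.38% to 1.23% in small and from 0.55% to 1.53% in medium follicles and overlapped widely (exact permutation test, p = 0.306).

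In the main fit of the 16 libraries, cumulus-enriched and oocyte-enriched genes had median log2 fold changes near that of all genes, 0.02. All 129 cumulus-enriched genes passed the filter, with a median log2 fold change of 0.04. At an unadjusted p under 0.05 and a fold change above 2, 7 were higher (5.43%, beside 3.51% of all genes) and 4 lower (3.1%, beside 2.54%). With the first digit of the identifier as a covariate the median of the 129 genes was 0.33. That of the mural-enriched genes was 0.39 in the same fit. In it 71.3% of the cumulus-enriched and 70.5% of the mural-enriched genes had a positive change, beside 49.9% of all genes. Among the healthy follicles 21 of the 129 were higher (16.3%, beside 8.63%) and 2 lower (1.55%, beside 3.27%), with a median of 0.19. In these follicles 1 gene of the list was a DEG. In the other follicles 2 were higher (1.55%, beside 2.28%) and 7 lower (5.43%, beside 4.49%), with a median of 0.01. CS50501 and CS71701 had the lowest medians of this list, -0.76 and -1.01, while the summed share in CS50501 was the highest of the small stage at 14.0%. Of 598 tested oocyte-enriched genes 12 were higher (2.01%, beside 3.51%) and 13 lower (2.17%, beside 2.54%). Their median log2 fold change was 0.01, with -0.08 in the healthy and 0.08 in the other follicles.

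**Figure D4:**
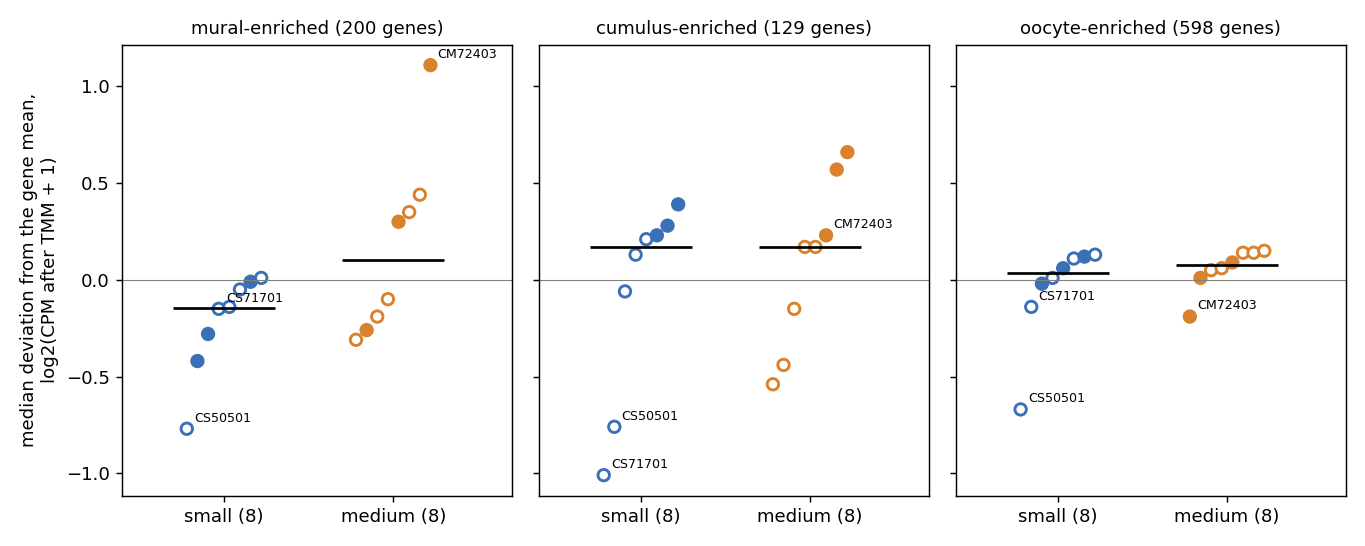
Median deviation of each list's genes from their mean over the 16 libraries, on log2(CPM after TMM + 1), for mural-enriched, cumulus-enriched and oocyte-enriched genes (panels); each point is 1 library, filled for healthy follicles, and lines are stage medians. CM72403 is the highest medium library for mural-enriched genes (1.11), and CS50501 is the lowest small library for mural-enriched and oocyte-enriched genes.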

How the data were processed

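The deposited values were raw counts per gene, listed for 27270 Ensembl identifiers in 90 columns, all of which were mapped to their samples by title. According to the submitters' notes, reads were mapped to ARS-UCD1.2 with HISAT2 2.2.1 and counted with featureCounts of Subread, whereas the study's methods name STAR with uniquely mapping reads. Which aligner the table came from could not be decided. CC pools were amplified without molecular identifiers, so counts are not molecules, and the floor of 3 counts covers counting error only. Between 61.1% and 75.9% of the counts from 1 to 20 were even, and halved counts were therefore tried.

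Groups were taken from the labels, and the healthy follicles are those the study chose. The members and lists were chosen with earlier results of these data known. The main fit used edgeR 4.0.16 in R 4.3.3 (TMM, glmQLFit, glmQLFTest, Benjamini-Hochberg adjustment) on genes above 1 CPM in 8 or more of the 16 libraries. The healthy and other sets were fitted separately on the same genes. DESeq2 1.42.0 was an alternative, with others on size factors, filters, libraries, identifier digits as covariates and each library left out. Scripts were tested on simulated data with 200 genes, drawn from those above a set mean level, changed 4-fold. Of these 118 were recovered with 5 others in the 8 against 8 design, and 125 with 6 others in the 3 against 3 design. Permutation tests were exact and two-sided. Principal components, distances and correlations used log2(CPM + 1) in Python 3.11.15 (numpy 2.4.6, scipy 1.17.1, pandas 2.3.3), and plots matplotlib 3.10.9.

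The rule for named genes asked for up to 10 per direction with symbols. The table of reference genes used here matched 0 of 27270 identifiers, so the text gives no more than 2 identifiers per direction, those with the lowest p in each direction in the 8 against 8 and then in the healthy fit. The planned lists of genes by function and of markers of other cell types were not run.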

Additional observations from a re-analysis of the deposited data

Results flagged for a closer look

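Of 32 groups of 8 library values that were tested for a single value far from the rest, 6 were marked. Chance marks about 1 in 20 groups of normally distributed values, which CPM values and shares need not be, so the 6 are not set against that rate. CM72403 had the lowest total count of the medium follicles, at 11777136. Among the small follicles CS50501 stood apart with 14.0% of its counts in cumulus-enriched genes and 0.0244% in oocyte-restricted genes. In single genes, ENSBTAG00000002069 had 438 CPM in CM70502, far above the other medium follicles. ENSBTAG00000031194 had 147 CPM in CS50506 and 65.1 CPM in CM71002, each far above the rest of its stage.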

How the results depend on the processing

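The count of DEGs in 8 against 8 follicles was 0 in 29 of 32 alternatives. It was 11 with DESeq2, 711 with an unadjusted p, and 0 to 1 when each library was left out, with the 1 DEG found without CS50506. In the healthy follicles the count was 5 in 3 alternatives, 433 with DESeq2, 679 with no filter on low values, 9 with the limits of the study applied to CPM, 1 with the large follicles in the fit, 1398 with an unadjusted p, and 1 to 1156 when each library was left out. The cause was not tested. Unadjusted calls in 8 against 8 numbered 1014, and 207 with CS70701 included, 243 with all 10 against 10 libraries, 233 with the first identifier digit as a covariate, 602 without CM72403 and CM72404, and 3908 with no filter.

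ENSBTAG00000031194 turned from 7.16 in the healthy follicles to -0.37 in all 16 libraries and -1.71 in the other follicles, and ENSBTAG00000015793 turned to 0.99 in the other follicles, with -0.97 in all 16 libraries. The fitted log2 fold change of the latter in the healthy follicles, -13.61, depends on the prior count because 1 group is at 0, and its adjusted p was 0.141 with the large follicles in the fit. ENSBTAG00000031194 kept its sign when each healthy library was left out (6.36 to 7.49), and its adjusted p was 0.12 to 0.229 without CS62003, CS62004 or CS62005. ENSBTAG00000002069 (2.34 to 4.93) and ENSBTAG00000020429 (-1.62 to -0.79) kept their sign in all 32 alternatives, and the former passed with DESeq2 (3.12) alone. The values 4.93 and -0.79 came from the fit with the identifier prefix as a covariate, whose stage term rested on few libraries. The median log2 fold change of mural-enriched genes ran from 0.18 to 0.88 in 32 alternatives, of cumulus-enriched genes from -0.11 to 0.33 and of oocyte-enriched genes from -0.08 to 0.15, each within 1 SD of the libraries. The share of distance between stages was 8.65% with a pseudocount of 0.5.

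No paired analysis was possible because small and medium follicles are different follicles and their numbers were given in accession order. The identifier prefix, which some small and medium follicles share, was a covariate instead, with 0 DEGs, 666 genes at an unadjusted p under 0.05 and a lowest adjusted p of 0.752. Only the prefixes 705 and 717 held both stages, with 1 library of each stage. The stage term of this fit therefore rested on CS70501, CM70502, CS71701 and CM71704, and it is no adjusted comparison of all 16 libraries. Alternatives without CS50501, CS71701, CM72403 or CM72404 together, the halved counts, the thinning, its repeat without CS50501 and the interaction test were chosen after seeing the data. Planned medians of lists by function and marker levels were not run.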
